A study of Bos taurus with 10 samples.

Results

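The sodium-potassium pump of animal cells is built from a catalytic alpha subunit and a glycosylated beta subunit, and ATP1B1 and ATP1B3 encode alternative beta subunits. They were followed over 10 arrays of bovine RNA hybridised to a human expression array, with every probe set that has values and carries either human symbol taken as a member. This gave 3 probe sets, 2 for ATP1B1 (a brighter one, 201243_s_at, and a dimmer one, 201242_s_at) and 1 for ATP1B3 (208836_at), out of 10186 analysed, or 2 genes out of 6732 with a symbol of their own. Both symbols also name a protein-coding gene in the bovine RefSeq gene table. The pair was chosen by the difference in normalised intensity between the embryo and adult arrays, which has opposite signs for the 2 genes. The embryo against tissue difference of the members is therefore given as a description, with no test.

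The embryo group holds 3 arrays of pooled total RNA from in vitro fertilized (IVF) bovine embryos, made by fertilizing oocytes outside the animal. The adult side holds 7 arrays of total RNA, 1 for each of 7 organs: spleen, muscle, lung, liver, kidney, heart and brain. The labels used here give no embryo stage, animal age, breed, sex or treatment. Nor do they state whether separate pools were used for the 3 embryo arrays, so the spread between them, and any p-value that rests on it, may be technical.

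The beta subunit helps the newly made alpha subunit leave the endoplasmic reticulum and reach the cell surface, and it shapes how the assembled pump handles ions. The pump moves sodium out of the cell and potassium in. In the blastocyst it sits on the inner-facing membranes of the outer cell layer, the trophectoderm, where sodium transport draws water into the cavity called the blastocoel. In adults the same pump maintains excitability in brain, heart and muscle and drives salt reabsorption in the kidney. ATP1B1 is the widespread partner of the pump in many epithelia and also takes part in adhesion between epithelial cells. ATP1B3 is known on blood cells as the surface antigen CD298.

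ATP1B3 was bright on every embryo array. After quantile normalization, which gives all arrays the same distribution of intensities, its probe set read 3779, 4181 and 4181 on embryo arrays 1, 2 and 3. Among the tissues it read 667 in liver, 657 in lung, 525 in brain, 478 in spleen, 243 in kidney, 224 in heart and 140.5 in muscle. The embryo arrays stood apart from all 7 tissues, with the dimmest embryo array 5.66 times above liver, the brightest tissue. The embryo mean was 4047 ± 232 (SD, n = 3) and the tissue mean 419 ± 216 (SD, n = 7), a ratio of 9.65. On the log2(intensity + 72) scale used throughout for differences, embryos were 3.21 above the mean of the tissues. The identical values on embryo arrays 2 and 3 come from the normalization, because the probe set ranked 6th from the brightest on both arrays and 8th on array 1.

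The deposited intensities, before any normalization here, gave the same separation. ATP1B3 read 2529.5, 3068.3 and 3287.8 on the 3 embryo arrays and between 147.3 in muscle and 644.0 in lung among the tissues. The embryo mean was 2962 ± 390 (SD, n = 3) and that of the tissues 403 ± 216 (SD, n = 7), a ratio of 7.35, and the lowest embryo array was 3.93 times above the highest tissue. In RNA from whole tissues and embryos, fewer cells of a type and less RNA per cell cannot be told apart.

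ATP1B1 showed the opposite placement on both of its probe sets. The brighter probe set read 218, 291 and 205 on embryo arrays 1, 2 and 3. It read 1539 in heart, 1457 in brain, 1392 in kidney, 1301 in muscle, 1048 in lung, 848 in spleen and 553 in liver. All 3 embryo arrays lay below all 7 tissues, and liver, the dimmest tissue, was 1.90 times above the brightest embryo array. The embryo mean was 238 ± 46.4 (SD, n = 3) and the tissue mean 1162 ± 362 (SD, n = 7), so tissues were 4.88 times brighter. The difference was -1.94 on the log2 scale.

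The dimmer ATP1B1 probe set spread more widely among the tissues. It read 889 in kidney, 510.1 in heart, 422 in brain, 311 in muscle, 211 in lung, 138 in spleen and 111 in liver. On the embryo arrays it read 25.03, 36.2 and 28.4, again below every tissue. Tissues averaged 370.4 ± 271 (SD, n = 7) and embryos 29.9 ± 5.75 (SD, n = 3), a ratio of 12.4, while the log2 difference was -1.90. These embryo readings are below the offset of 72, which is the 25th percentile of the arrays, so the offset compresses this difference and the linear ratio rests on very dim values. In the deposited intensities the same probe set read 18.2, 37.3 and 34.5 in embryos and 75.3 to 706.4 in tissues, and the brighter one read 184.5, 317.9 and 294.5 against 431.2 to 1687.4. Neither overlapped between embryos and tissues on that scale either.

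**Figure D1:**
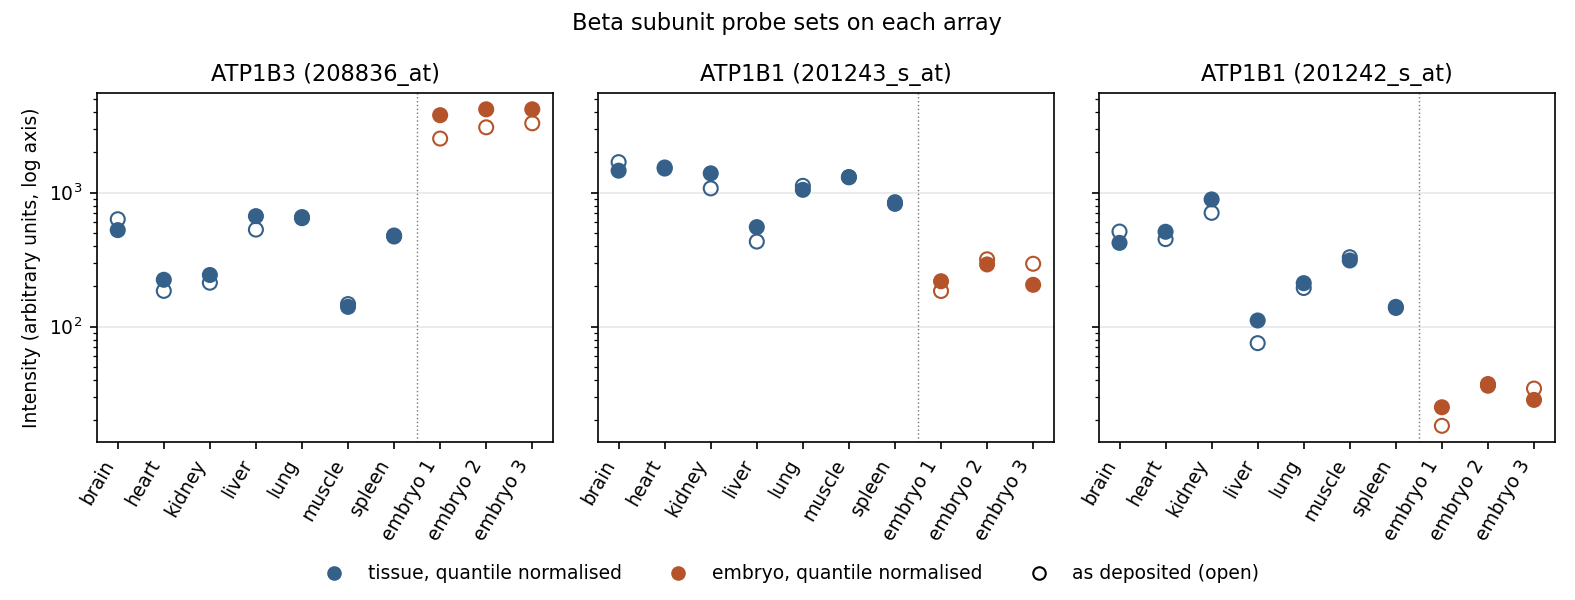
Intensity (arbitrary units, log axis) of the ATP1B3 probe set and both ATP1B1 probe sets on each of the 10 arrays, with filled points for quantile normalised and open points for deposited values, blue for tissues and brown for embryos. ATP1B3 sits between 3779 and 4181 on the embryo arrays and at or below 667 in tissues, while both ATP1B1 probe sets are lower on all 3 embryo arrays than in any tissue.

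For scale, among the 6775 probe sets that passed a filter on dim signal (above the array's median on at least 3 arrays), all 3 embryo arrays lay above all 7 tissues for 12.5% and below them for 6.61%. Nothing is read from these shares about ATP1B1 and ATP1B3, since this contrast chose them. All 3 probe sets passed the filter. ATP1B3 was above the array's median on 9 arrays, the brighter ATP1B1 probe set on 10 and the dimmer on 5, the last of these all tissues.

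Set against single tissues, the size of the difference varied with the tissue. Embryos exceeded muscle in ATP1B3 by 4.28 on the log2 scale, heart by 3.80 and kidney by 3.71. The gap was smaller against spleen (2.90), brain (2.79), lung (2.50) and liver (2.48). For ATP1B1 the difference ran downwards, and its size again varied. On the brighter probe set embryos were lower than heart by a log2 difference of -2.39, brain by -2.31, kidney by -2.25, muscle by -2.16 and lung by -1.86, with -1.58 for spleen and -1.02 for liver. On the dimmer one the range was from -3.24 against kidney to -0.85 against liver. Heart and kidney were among the 3 tissues farthest from embryos for each probe set after normalization. Liver was nearest for both ATP1B1 probe sets. For ATP1B3 liver and lung were level, and in the deposited values lung and brain were nearer than liver.

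Among the adult tissues alone, which the choice of the pair did not rest on, ATP1B3 fell into a brighter and a dimmer set. Liver, lung, brain and spleen read 478 to 667 and kidney, heart and muscle read 140.5 to 243. The step between spleen and kidney was 0.81 on the log2 scale, against a range of 0.14 over the 3 embryo arrays, and it was present in the deposited values as well (470.3 and 212.7). With 1 array per tissue, the embryo range is the sole measure of array-to-array spread and may not hold for tissues. The range of 0.14 is also narrowed by the normalization, which gave embryo arrays 2 and 3 identical values. Beside that range, liver could not be separated from lung, brain from spleen or kidney from heart. In the deposited values, with no offset, the embryo range was 0.38 and only the step from spleen to kidney (1.14) exceeded it. Muscle, at 140.5, lay 0.48 below heart after normalization, while the deposited gap of 0.33 was within the embryo range of 0.38.

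The tissue order of ATP1B1 was less certain. On the brighter probe set the 5 steps from heart down through brain, kidney, muscle and lung to spleen were all within the embryo range of 0.39, and only the step from spleen to liver (0.56) was larger. Heart was the highest tissue after normalization and brain in the deposited values. On the dimmer probe set kidney was highest on both scales and led the next tissue, heart, by 0.72. All 6 of its steps exceeded the embryo range of 0.16 after normalization. That range is narrowed by the offset, which is larger than the embryo readings of 25.03 to 36.23. It therefore cannot show whether these steps exceed array-to-array spread. In the deposited values, with no offset, the embryo range was 1.04 and none of the 6 steps exceeded it. The scales thus differ in the offset as well as in the normalization. Liver was lowest and spleen next to lowest on both probe sets and both scales. Over the 7 tissues the probe sets had Pearson's r = 0.85 and Spearman's rho = 0.89. Without kidney and liver, the tissues farthest from the median of the dimmer probe set, r was 0.99, and in the deposited values it was 0.83, or 0.21 without liver and spleen. These correlations are descriptions over arrays of different tissues on one platform.

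ATP1B3 and ATP1B1 tended to opposite ends across tissues, although loosely. Muscle, heart and kidney joined a high ATP1B1 reading to a low ATP1B3 reading, and liver joined the lowest ATP1B1 to the highest normalised ATP1B3. Brain read high for both. Over the 7 tissues r was -0.63 and rho -0.57 for the brighter ATP1B1 probe set, and -0.61 and -0.61 for the dimmer. Leaving out the 2 tissues farthest from the ATP1B1 median gave r = -0.48 and -0.44. In the deposited values r was -0.32 and -0.50, with rho of -0.11 and -0.25, and leaving out 2 tissues gave r = -0.64 and -0.35. The size of r thus changes with the scale and with the tissues kept. With 7 points that share a platform and have no replicates, it remains a description.

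**Figure D2:**
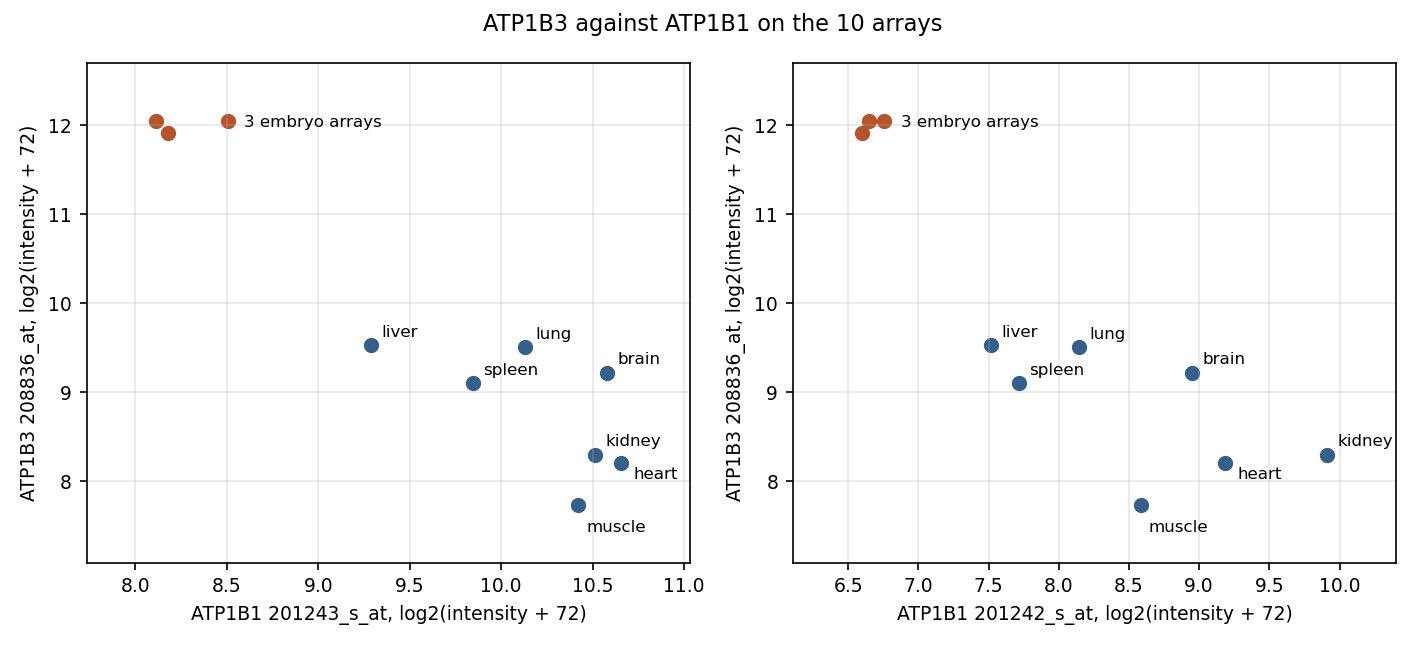
ATP1B3 (vertical axis) against each ATP1B1 probe set (horizontal axis), both as log2(intensity + 72), with 1 point per array, blue for tissues and brown for embryos. The 3 embryo arrays occupy the upper left corner, liver is the tissue nearest to them on the ATP1B1 axis, and muscle, heart and kidney lie at the lower right.

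A ratio taken within an array does not depend on a single factor by which that array was scaled. It can change with steps that act unevenly over intensities, and the authors' steps are not known here. The log2 ratio of ATP1B3 to ATP1B1 was formed from the deposited values and centred on the mean of the 7 tissues, since the absolute ratio of different probe sets has no meaning. Against the brighter ATP1B1 probe set it was 5.38, 4.88 and 5.09 on embryo arrays 1, 2 and 3. The tissues ran from -1.54 in muscle and -1.42 in heart through -0.73 in kidney, 0.19 in brain, 0.80 in spleen and 0.80 in lung to 1.90 in liver. Against the dimmer one it was 6.77, 6.02 and 6.23 in embryos, and from -2.08 in kidney to 2.47 in liver among tissues. Those embryo ratios rest on very dim deposited ATP1B1 readings, from 18.2 to 37.3. Kidney, heart and muscle were below 0 and liver, lung and spleen above 0 with either probe set, while brain was at 0.19 and -0.04.

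**Figure D3:**
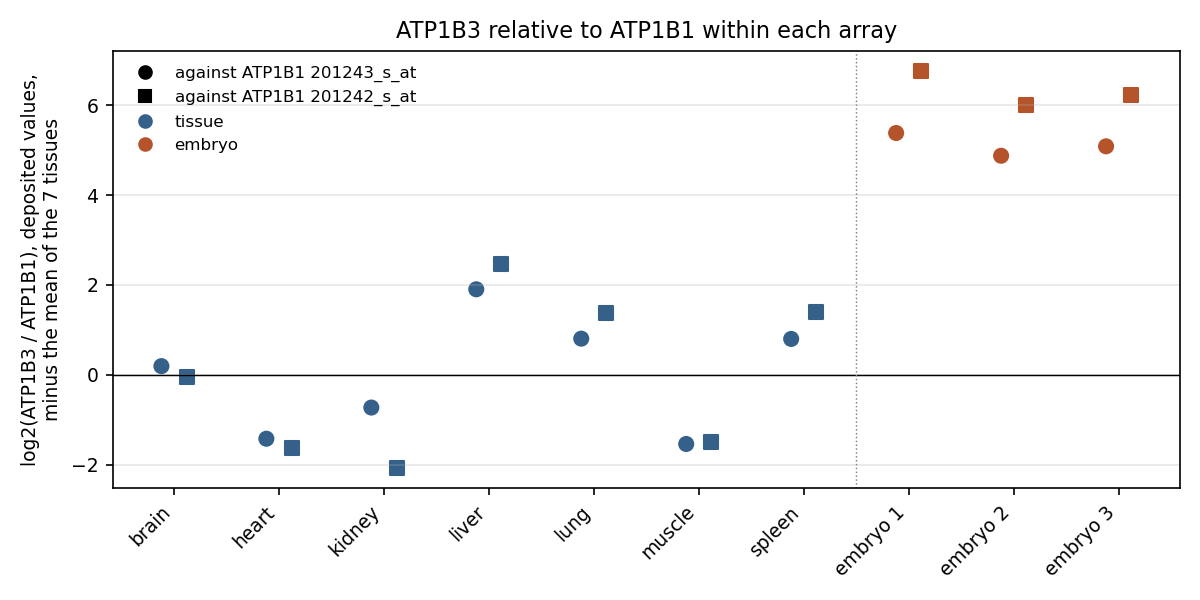
Log2 ratio of ATP1B3 to ATP1B1 from deposited values on each array, minus the mean of the 7 tissues, with circles for the brighter and squares for the dimmer ATP1B1 probe set, blue for tissues and brown for embryos. The embryo arrays lie between 4.88 and 6.77 and the tissues between -2.08 and 2.47.

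The embryo label was set against markers of the blastocyst's cell types. Of 8 trophectoderm markers with values, 7 were highest on an embryo array and 4 (KRT8, KRT18, TFAP2C and SFN) were above every tissue on all 3. Of the 7, GATA2 averaged 495 in embryos and 493 in tissues. The summed normalised intensity of the 8 markers was 9650 to 11860 on the embryo arrays and 1013 to 1705 in tissues. ATP1B3 was chosen by its high reading on the same arrays, so no link with it is read from this. SFN alone makes up most of the embryo sum; without it the sums were 3425 to 3787 and 795 to 1207. All 5 inner cell mass markers with values were highest on an embryo array, with sums of 2561 to 2875 against 94.5 to 1348. Markers of cumulus and granulosa cells, which surround the oocyte, summed to 861 to 1210 on embryo arrays and 861.5 to 1659 in tissues. Of 8 such markers, 2 (INHA and GJA1) were under 72 on all 3 embryo arrays. Another 3 (CYP19A1, TNFAIP6 and STAR) were highest on an embryo array, and TNFAIP6 was above every tissue on all 3 arrays. Some markers of adult tissues were also above every tissue on all 3 embryo arrays. They were 1 of 3 blood, 1 of 12 liver and 1 of 9 kidney markers. HBB (blood) averaged 514 against at most 286 in tissues, and ALB (liver) 179 against at most 109, in spleen. SLC22A8 (kidney) averaged 639 against at most 68.8, in lung. ALB and SLC22A8 were thus not brightest in liver and kidney among the tissues, and are not read as signs of those organs. For scale, 12.5% of all tested probe sets were above every tissue on all 3 embryo arrays. No brain, heart, lung, skeletal muscle or spleen marker was. The part of cell composition in the levels of ATP1B1 and ATP1B3 was not tested.

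Tissue labels were borne out to differing degrees by the markers with values. The labelled tissue was highest among the 7 for 14 of 15 skeletal muscle, 11 of 12 heart, 9 of 12 liver, 7 of 12 brain, 4 of 9 kidney, 2 of 6 lung and 0 of 2 spleen markers. The spleen array thus has little marker support here. The median deposited intensity was 99.2 to 183.3 in tissues and 123.7 to 221 in embryos. GAPDH control probe sets, whose 5′ over 3′ ratio gauges RNA integrity, gave 0.461 to 0.488 on embryo arrays and 0.287 to 0.471 on tissue arrays. Its part in these levels was not tested.

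Regulators of the pump were available in part. ATP1B2 and ATP1B4, which encode other beta subunits, were not analysed here. Of 7 FXYD genes, which encode small membrane proteins that tune pump kinetics, 3 had values. FXYD2, the gamma subunit of the kidney pump, read 396 in kidney, 6.37 to 16.5 in the other tissues and 21.1, 10.9 and 9.91 in embryos. FXYD2 was thus bright in the tissue where the dimmer ATP1B1 probe set was highest, and dim in embryos. FXYD1, or phospholemman, the FXYD protein of heart and skeletal muscle, read 535 in heart, 224 in muscle and 62.4 to 125 in the other tissues, with 105, 75 and 66.1 in embryos. Neither FXYD1 nor FXYD2 passed the filter on dim signal, so no test was made of them.

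FXYD3, a regulator found in epithelia, read 309, 299 and 271 in embryos and 180.4 to 241 in tissues. Although all 3 embryo arrays were above all tissues, the log2 difference of 0.39 ± 0.15 (SE) did not pass the test over all probe sets (limma adjusted p = 0.130). Its other probe set averaged 155 in embryos and 151 over the tissues, a difference of 0.03 with a limma adjusted p of 0.931. ATP4A, the catalytic subunit of the related gastric proton pump, read 277 ± 13.7 (SD, n = 3) in embryos and 163 in tissues, and did not pass either (log2 difference 0.62 ± 0.24 SE, limma adjusted p = 0.117). Liver, at 283, was within the embryo range. ATP4A passed in the deposited values (limma adjusted p = 0.0431) and without the liver array (0.0377).

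Genes that could act with the pump in moving salt and water were read from the same test of embryos against tissues. Lists covered pump regulators, ion pumps, sodium entry, potassium and chloride channels, water channels and epithelial junctions. Of 144 listed genes 69 had values and 47 were tested. Limma called 2 higher in embryos and 2 lower, or 4.26% each way, where 8.87% of all tested probe sets were called higher and 3.22% lower. The median log2 difference over the 47 genes was -0.04, against 0.04 over all tested probe sets. These shares do not set the lists apart from the rest of the array. At an unadjusted p under 0.05 there were 10 genes, or 21.3%, against 27.7% of all tested probe sets.

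The genes called higher were CLIC1 and CLIC4, members of a family of chloride intracellular channel proteins. CLIC1 read 1215, 982 and 967 on embryo arrays 1, 2 and 3, and among tissues 554 in spleen and 467 in lung, with 54.4 to 149 in the others. The embryo arrays were above every tissue (log2 difference 2.17 ± 0.47 SE, limma adjusted p = 0.0105). CLIC4 read 364, 417 and 318 in embryos against 9.70 in muscle to 194 in kidney, also without overlap (1.53 ± 0.33 SE, limma adjusted p = 0.0106). The tissue order of CLIC1 was not that of ATP1B3, since brain was its dimmest tissue and liver read below kidney. CLIC4 was brightest among tissues in kidney.

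The genes called lower were AQP1 and PPP2R5C. AQP1, a water channel of kidney tubules and blood vessels, read 66.6, 57.2 and 57.3 in embryos. It read 5038 in kidney, 2964 in lung, 2217 in heart and 926 in spleen, down to 123 in brain, and was below every tissue in embryos (-2.99 ± 0.87 SE, limma adjusted p = 0.0433). Its other probe set was also below every tissue in embryos but did not pass (-1.18, limma adjusted p = 0.198). The call of AQP1 was lost without the kidney, spleen, lung or heart array (limma adjusted p = 0.0507, 0.0588, 0.0595 and 0.0698). PPP2R5C, a regulatory subunit of protein phosphatase 2A, read 55.6, 51.4 and 44.5 in embryos and 100.1 in liver to 399 in brain (-1.08 ± 0.27 SE, limma adjusted p = 0.0244). PPP2R5C did not pass in the deposited values (limma adjusted p = 0.0675), nor CLIC4 with no offset (0.0690).

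All 4 calls depended on counting the embryo arrays as 3 samples. With these arrays averaged into 1 sample limma called none of the 47 genes, 3 having an unadjusted p under 0.05. Without embryo array 1, 2 or 3 in turn, limma called 1, 0 and 0 genes higher and none lower, with 5, 5 and 7 at an unadjusted p under 0.05. The gene called without array 1 was SLC12A3, a sodium-chloride cotransporter (named after its values were seen). There a different SLC12A3 probe set became the brightest, and that probe set also passes with all arrays.

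**Figure D4:**
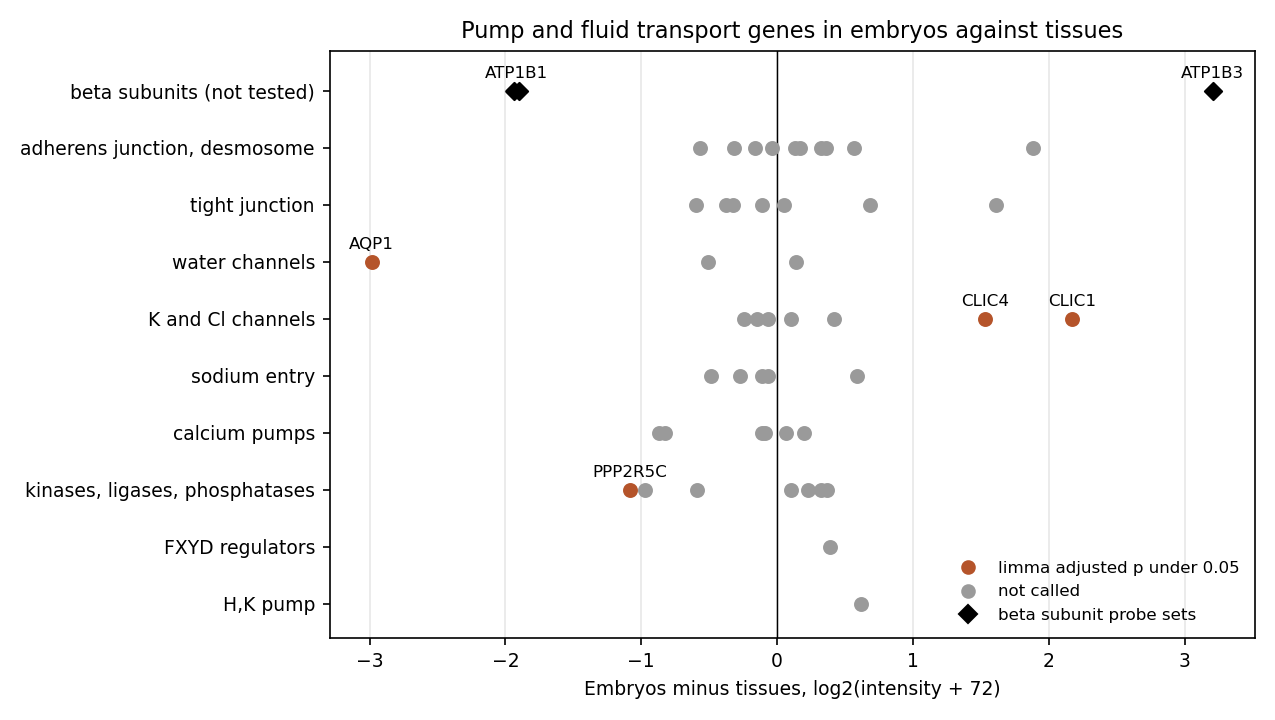
Log2 difference of embryos minus tissues, on log2(intensity + 72), for the 47 tested genes in 9 lists, brown where the limma adjusted p was under 0.05 and grey where not, with the 3 beta subunit probe sets (not tested) as black diamonds. Only CLIC1, CLIC4, AQP1 and PPP2R5C are brown. The beta subunits were chosen by this difference, so their place is not set against that of the lists.

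**Figure D5:**
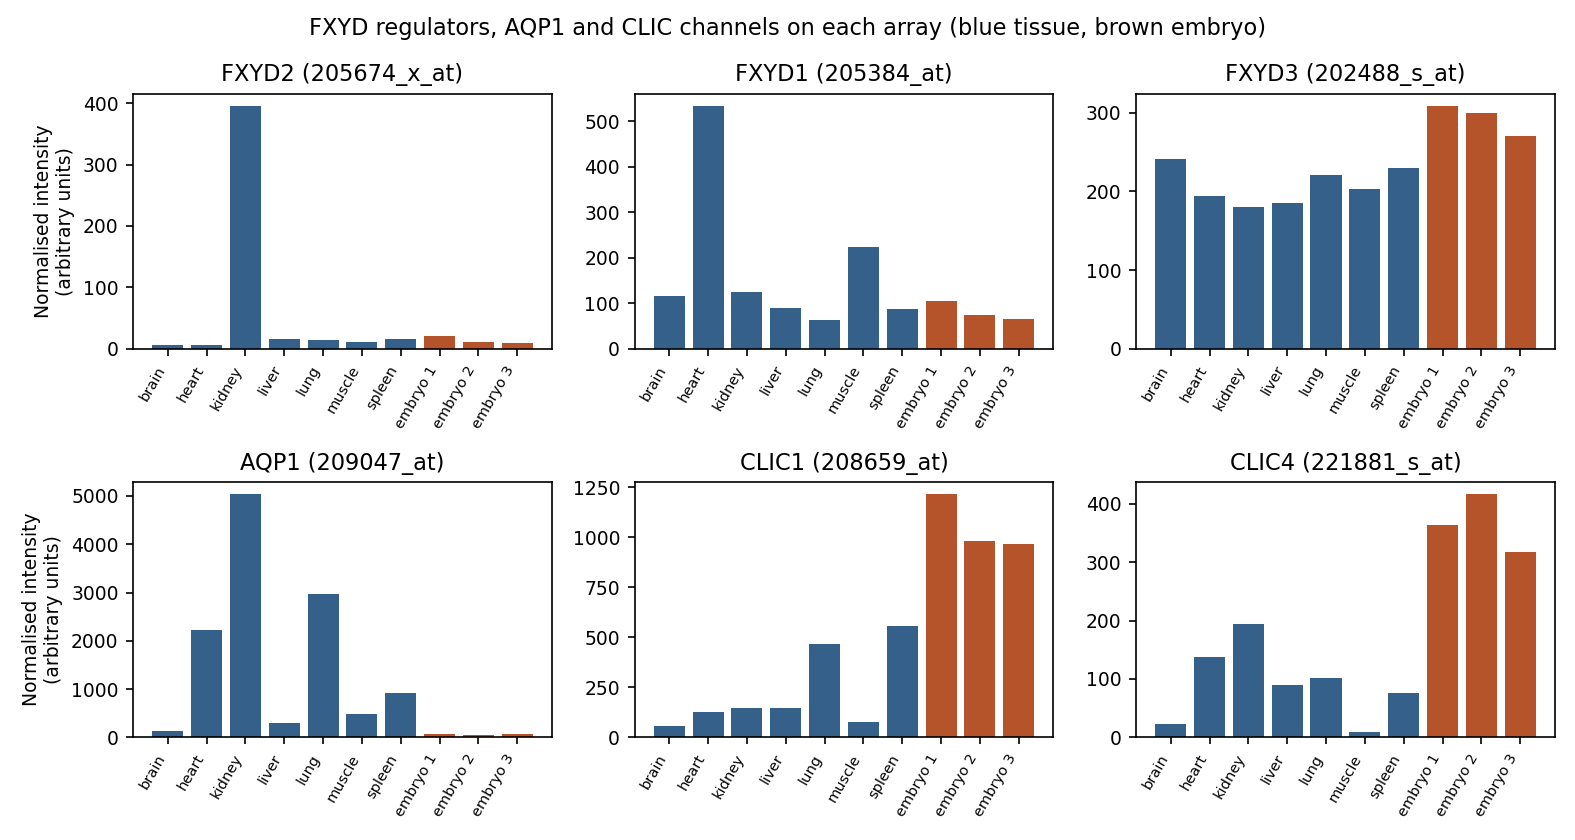
Normalised intensity (arbitrary units, axes from 0) of FXYD2, FXYD1, FXYD3, AQP1, CLIC1 and CLIC4 on each array, 1 bar per array, blue for tissues and brown for embryos. FXYD2 stands out in kidney at 396 and FXYD1 in heart at 535, while CLIC1 and CLIC4 are brightest on the embryo arrays.

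Genes of the epithelial seal, which keeps fluid inside the blastocoel, gave no calls among those tested. Limma called 12.1% of all tested probe sets in either direction, so an absence of calls in so few genes is not read as a result. Of 7 tested tight junction genes limma called none in either direction, and 1 had an unadjusted p under 0.05. TJP1, the scaffold protein ZO-1, read 697, 603 and 583 in embryos and 104 in liver to 766 in kidney (log2 difference 0.68 ± 0.40 SE, limma adjusted p = 0.295). OCLN, occludin, read 78.6, 77.6 and 162 in embryos and 32.7 in brain to 165 in muscle, and did not pass the filter. Nor did PRKCI, a kinase of cell polarity (named after its values were seen), which read 138, 149 and 195 in embryos and 40.6 to 71.1 in tissues. With no filter limma called it higher (0.83, limma adjusted p = 0.0298). Of 10 adherens junction and desmosome genes none was called, with 2 at an unadjusted p under 0.05. CDH1, the adhesion protein E-cadherin, read 386, 219 and 189.8 in embryos and 209 in liver to 401 in brain, with overlapping groups (-0.16 ± 0.23 SE, limma adjusted p = 0.686).

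Genes of sodium entry and the calcium pumps were without calls where the brightest probe set stood for the gene. None of 5 sodium entry genes and none of 6 calcium pump genes then passed limma, and none had an unadjusted p under 0.05. The median log2 differences were -0.11 and -0.10. Of the 11 other tested probe sets of the listed genes, 2 (18.2%) were called higher and none lower, and their genes are named after their values were seen. Limma called 12.1% of all tested probe sets in either direction, so nothing is read from these small counts. For ATP2A2, a calcium pump of the endoplasmic reticulum, such a probe set read 327, 321 and 286 in embryos and 16.9 to 83.1 in tissues (1.82 ± 0.25 SE, limma adjusted p = 0.000768). The brightest ATP2A2 probe set gave -0.87 (limma adjusted p = 0.341). The remaining tested ATP2A2 probe set gave 1.02 and did not pass (limma adjusted p = 0.117), though all 3 embryo arrays were above every tissue. The probe sets of ATP2A2 thus disagreed in sign. For SLC12A3 such a probe set read 313, 473 and 421 in embryos and 67.0 to 205 in tissues (1.28 ± 0.22 SE, limma adjusted p = 0.00335), where the brightest gave 0.59 (limma adjusted p = 0.410). SGK1, a kinase that raises sodium transport, read 244, 163 and 99.0 in embryos and 29.2 in heart to 375.0 in kidney (0.10 ± 0.37 SE, limma adjusted p = 0.888). AQP3, a channel for water and glycerol, read 53.2, 99.3 and 106 in embryos on its tested probe set and 86.6 to 288 in tissues (-0.51 ± 0.26 SE, limma adjusted p = 0.227). Its other probe sets, which did not pass the filter, differed among themselves, the first being above every tissue in embryos (163 against a mean of 83.7) and the second averaging 29.3 against 103. The direction of AQP3 cannot be read from these.

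The genes whose readings ran most like those of each beta subunit were ranked by Pearson correlation of log2 values among 4725 other tested genes. Over all 10 arrays the nearest to ATP1B3 was ADAMTS20, a secreted metalloprotease, with r = 0.996. It read 360, 383 and 391 in embryos and 77.2 in muscle to 159 in brain. The next were ATP6V0A2, a subunit of the vacuolar proton pump (r = 0.98), DNAJA1, a co-chaperone (0.98), DOC2B, a protein of vesicle release (0.97), and SEPTIN11, a cytoskeletal septin (0.97). Each was higher on all 3 embryo arrays than in any tissue, and 128 genes had r above 0.9, and the embryo against tissue step that chose ATP1B3 enters all of these correlations. Over the 7 tissues alone the nearest were PDLIM1, ADAMTS20, SERP1, ATRN and MICALL2, with r from 0.95 to 0.97. ADAMTS20 alone stands in both sets of 5. It followed ATP1B3 from muscle, heart and kidney at 77.2 to 110.5 up to spleen, liver, lung and brain at 141 to 159.

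For the brighter ATP1B1 probe set the nearest over all 10 arrays were DCAF8, NFIB, MBNL2, DIP2C and LRP5L, with r from 0.94 to 0.95. Above 0.9 were 19 genes. Each of those named was lower on all 3 embryo arrays than in any tissue. The embryo against tissue step that chose ATP1B1 enters all of these correlations. NFIB, a transcription factor, read 11.5, 21.4 and 17.7 in embryos and 183 to 570.4 in tissues. MBNL2, a splicing regulator, read 12.4, 0.80 and 8.46 in embryos and 132 to 294 in tissues. Over the 7 tissues the nearest were CKAP5, CDC25C, STAT3, SKAP1 and CSTF2, with r from 0.97 to 0.99, none of them in the first set. Over those tissues 43 genes had r above 0.9. For each of the nearest genes liver read below the embryo arrays, so none was below every tissue in embryos. Only 6.61% of all tested probe sets were. ATP1B1 was chosen by its embryo against tissue difference, so no contrast with it is read from this. STAT3 read 105, 150 and 122 in embryos, with 7.01 in liver, 146 in spleen and 170 to 433 in the other tissues. SKAP1 read 203, 165 and 249, with 152 in liver, 226 in spleen, 245 in lung and 404.5 to 428 in the others. CKAP5, which binds growing microtubule ends, read 229, 470.2 and 481 in embryos and 138 to 302 in tissues, and CSTF2, an RNA cleavage factor, read 866, 669 and 428 against 208 to 1021.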

How the data were processed

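Each deposited value is a linear intensity of 1 probe set on 1 array. The authors' software, background correction and scaling were steps not given in the sources used here. Values were present for 10219 of 22283 probe sets, the same on all 10 arrays, and 33 of these were controls, which were left out. Names are the human symbols of the platform annotation, taken where a probe set had 1 symbol (8847 probe sets); 479 had several and 860 none. Human probes may match bovine RNA unevenly, so levels of different probe sets are not read as relative amounts of RNA. The marker sums and the choice of the brightest probe set do rest on such levels. No genome build is named, so no coordinates are given.

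Array means, trimmed by 2%, spanned a 1.90-fold range, so intensities were quantile normalized and put on log2(intensity + 72). Groups came from the sample titles. Embryos were tested against tissues with limma 3.58.1 in R 4.3.3 (lmFit, eBayes with trend and robust, two-sided, Benjamini-Hochberg at 0.05) over 6775 probe sets, and the brightest tested probe set stands for a gene. The test was tried on simulated data. The members, lists and named genes were chosen with earlier results of these data known. Every gene with values was named for the pump subunit, proton pump and FXYD lists, up to 4 called genes of each other list, a few fixed genes (TJP1, OCLN, CDH1, AQP3, SGK1), and the 5 most similar genes. Alternatives were other scalings, offsets, filters and moderation, averaged embryo arrays, another probe set per gene, an exact permutation for named genes, and each array left out. Plots were made in Python 3.11.15 (matplotlib 3.10.9).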

Additional observations from a re-analysis of the deposited data

How the results depend on the processing

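ATP1B3 stayed higher and both ATP1B1 probe sets lower in embryos under every scaling, offset and leave-out tried. The log2 difference of ATP1B3 was 2.82 in the deposited values, 2.55 at a common median, 3.47 with no offset, 2.68 with an offset 4 times larger, and 3.02 to 3.31 with an array left out. That of the brighter ATP1B1 probe set was -2.23 with no offset, -1.42 with the larger offset, and -2.08 to -1.85 with an array left out. For the dimmer one no offset gave -3.32 and the larger offset -0.96. Deposited values moved the median of all tested probe sets to 0.22 and the calls to 777 higher and 151 lower, from 601 and 218. Averaged embryo arrays gave 73 higher and 5 lower. Leave-outs gave 64 to 636 higher and 27 to 296 lower.

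Of 47 tested pump and fluid transport genes, 5 were higher and 1 lower with deposited values, 1 higher and 2 lower with no offset, 2 higher and 1 lower with the larger offset, and 0 were called with averaged embryo arrays. With no filter, 3 of 69 were higher and 1 lower, and with the filter at the 75th percentile 2 of 27 were higher and 1 lower. Leave-outs gave 0 to 4 higher and 0 to 2 lower. SLC12A3 was called in 4 of these settings, each time through a probe set other than the one used above. AQP1 lost its call in 10 of 20 alternatives (limma adjusted p from 0.0507 to 0.652), among them the heart, kidney, lung and spleen leave-outs; the cause was not tested. FXYD3 had an unadjusted p = 0.00833 in the exact permutation test, two-sided, the smallest that test can give. CLIC1, CLIC4 and PPP2R5C had the same p in that test. The embryo arrays were above every tissue for FXYD3, as they were for 12.5% of all tested probe sets. No paired analysis was possible because each tissue has a single array and the embryo numbers match no tissue number. The number of arrays limits the precision.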

Other observations

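A further probe set is annotated to both FXYD2 and the FXYD6-FXYD2 readthrough and was not used to name a gene. It read 548 in kidney, 0.73 to 7.91 in the other tissues and 13.0, 5.14 and 6.21 on embryo arrays 1, 2 and 3. It was thus bright in kidney alone, as the FXYD2 probe set was.

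Genes outside the naming rule, chosen after their values were seen, were high in embryos without passing the test. CLDN10, a claudin of ion-selective tight junctions, read 984 ± 224 (SD, n = 3) in embryos and 1742 in kidney, the highest tissue, followed by brain at 742 (log2 difference 1.61, limma adjusted p = 0.182). PERP, a desmosome protein, read 579 ± 173 (SD, n = 3) in embryos and 652 in liver, with 183 as the mean of tissues (1.88, limma adjusted p = 0.0951). CLDN10 was called without the kidney array and PERP without the liver array.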
